A study of Mus musculus with 12 samples.

Results

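Retinoid handling in mouse liver was described through 9 genes. These are the retinol dehydrogenases Rdh9, Rdh16, Rdh16f1, Rdh16f2 and Rdh11, the plasma retinol carrier Rbp4, the retinol esterifying enzyme Lrat, the retinal dehydrogenase Aldh1a1 and the retinoic acid hydroxylase Cyp26a1. They were taken by gene name from the 55401 genes counted. All 9 had enough reads to enter the test, as did 15982 genes in all. The set was proposed from counts of these same libraries across the groups, so the values of its members are given as a description, without p-values. Polyadenylated RNA from the livers of male C57BL/6 mice was sequenced in 12 libraries, 3 in each of 4 groups. FLOX-NC livers carried both floxed Lpcat3 alleles (LPCAT3flox/flox) and came from mice on the control diet. LKO-NC livers carried the same floxed alleles together with cre (LPCAT3flox/flox-cre), also on the control diet. FLOX-HFHS and LKO-HFHS livers had these 2 genotypes and came from mice fed for 16 weeks the diet abbreviated HFHS, whose sugar is sucrose in one of the labels and fructose in another text of the series. All 4 groups thus shared the floxed allele, and which promoter drove cre is not given in the sources used here. The age given for every group is 8 to 10 weeks although feeding alone lasted longer, so the age at sampling of HFHS mice is not known from it. Whether the libraries of a group are from different mice is not stated, and a p-value therefore measures only how these samples vary, possibly for technical reasons.

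The liver is the main store of vitamin A in the body. Retinol reaches hepatocytes, is secreted from them bound to retinol-binding protein, and is stored as retinyl esters mostly in hepatic stellate cells, where LRAT forms the esters. Retinol dehydrogenases of the short-chain family oxidise retinol to retinal, retinal dehydrogenases carry retinal on to retinoic acid, and enzymes of the CYP26 family clear retinoic acid by hydroxylation. Retinoic acid acts through nuclear receptors of the RAR family paired with RXR, and Cyp26a1 is itself a well-known gene switched on by retinoic acid, so that in many tissues its level follows the supply of that ligand.

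Total counts per library ran from 34951150 to 59205759. One ribosomal RNA gene took 5.82% to 32.7% of the counts of a library, with the highest share in FLOX-NC replicate 1. Levels below are TMM-scaled CPM unless another scale is named. Lpcat3, the targeted gene, stood at 49.7, 49.9 and 61.9 CPM in FLOX-NC and at 25.4, 65.0 and 19.4 CPM in LKO-NC. The library labelled LKO-NC replicate 2 therefore went against its label. On the HFHS diet Lpcat3 stood at 72.6, 80.6 and 75.7 CPM in FLOX and at 25.0, 25.9 and 29.4 CPM in LKO, with no overlap. Fold changes that use LKO-NC are given below with and without the library labelled LKO-NC replicate 2, for the members and for Pnpla3. The labelled tissue matched its markers, since 8 hepatocyte genes together held 39589 to 88066 CPM in every library. Marker lists of other cells differed between diets. The summed level of 8 Kupffer cell genes was 44.3 to 89.6 CPM over the 6 control diet libraries and 116 to 230 CPM over the 6 HFHS libraries. In each genotype 3 of these 8 were called higher by the diet and 0 lower. Two-sided exceptions to the sum were Timd4, at 1.26 to 6.00 and 0.742 to 5.03 CPM, and Marco, at 0.739 to 2.00 and 0.271 to 4.54 CPM. The sum of 6 recruited macrophage genes was 11.3 to 18.3 CPM on the control diet against 32.9 to 82.2 CPM on the HFHS diet. For 5 cholangiocyte genes the ranges were 27.4 to 47.2 and 58.5 to 267 CPM, most of it Spp1 at 18.4 to 39.4 and 51.4 to 239 CPM. Of the other listed cholangiocyte genes, Epcam was 0.394 to 1.39 and 0.311 to 6.86 CPM, and Sox9 1.58 to 13.8 and 4.84 to 19.9 CPM. Krt19 and Krt7 stayed between 0.198 and 2.23 CPM. Sums over 6 activated fibroblast genes were 11.0 to 100 and 77.1 to 158 CPM, and over 6 sinusoidal endothelial genes 43.7 to 110 and 65.9 to 94.2 CPM. The 4 T and B cell genes summed to 0.158 to 1.91 and 0.444 to 2.19 CPM, and the 4 adipocyte genes to 0 to 1.66 and 2.63 to 7.94 CPM, with Lep and Plin1 at 0 throughout, Adipoq at 0 in all HFHS libraries and the HFHS sums made of Cidea alone. The part of these lists in the results below was not tested. In bulk liver, fewer cells of a type and less RNA per cell cannot be told apart.

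Of the 9 genes, 1 was called by the HFHS diet in floxed livers and the same 1, Cyp26a1, in knockout livers, lower in both. A call is an adjusted p under 0.05 by the edgeR quasi-likelihood test over all 15982 genes. Of all tested genes, 2.9% were called by the diet in floxed livers (1.6% higher, 1.31% lower) and 3.75% in knockout livers (2.25% higher, 1.5% lower). The members were chosen on these counts, so nothing is read from the comparison of these shares. The knockout called 0 of 9 on the control diet (2 at an unadjusted p under 0.05, and 1 by DESeq2) and 0 of 9 on the HFHS diet (1 at an unadjusted p under 0.05, and 0 by DESeq2). For the interaction, which asks whether the diet effect differed between genotypes, edgeR called 0 of 9, with 1 at an unadjusted p under 0.05 and 1 by DESeq2. In each of these 3 comparisons edgeR called 0% of all tested genes, while 1128, 520 and 782 genes had an unadjusted p under 0.05 and DESeq2 called 67, 36 and 33 genes. The call that DESeq2 made among the members was Rdh16f1 both times, whose counts are described next.

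Rdh9, Rdh16f1, Rdh16 and Rdh16f2 are neighbouring genes on the plus strand of mouse chromosome 10 (build mm10), and encode short-chain dehydrogenases that act on retinol and on hydroxysteroids. Rdh16f1 (ENSMUSG00000099009, chr10:127759787-127792694) overlaps Rdh9 (ENSMUSG00000056148, chr10:127776386-127792697), and Rdh16 (ENSMUSG00000069456, chr10:127801152-127846565) and Rdh16f2 (ENSMUSG00000074639, chr10:127866474-127877317) follow. The coding sequence of Rdh9 was 98.7% identical to that of Rdh16f1, 96.3% to that of Rdh16 and 91.6% to that of Rdh16f2. To show how little separates them, the last 90 coding bases of the first exon and the first 30 of the second exon of each gene (GENCODE M21, GRCm38, 5′ to 3′) are given here, with capitals where a base differs from Rdh9.
Rdh9: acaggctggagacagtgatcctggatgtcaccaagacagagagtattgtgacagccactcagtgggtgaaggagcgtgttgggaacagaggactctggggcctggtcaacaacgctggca
Rdh16f1: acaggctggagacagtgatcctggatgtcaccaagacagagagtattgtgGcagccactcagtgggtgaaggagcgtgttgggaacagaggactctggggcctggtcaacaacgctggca
Rdh16: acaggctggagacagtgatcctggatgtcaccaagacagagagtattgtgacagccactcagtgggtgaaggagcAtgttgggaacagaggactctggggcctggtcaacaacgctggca
Rdh16f2: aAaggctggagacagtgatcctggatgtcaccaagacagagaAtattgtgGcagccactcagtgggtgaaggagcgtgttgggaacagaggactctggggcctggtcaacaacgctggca
The first-exon part lies at chr10:127776708-127776797 in Rdh9, chr10:127760161-127760250 in Rdh16f1, chr10:127801421-127801510 in Rdh16 and chr10:127866779-127866868 in Rdh16f2. The second-exon part lies at chr10:127788608-127788637 in both Rdh9 and Rdh16f1, at chr10:127811054-127811083 in Rdh16 and at chr10:127874829-127874858 in Rdh16f2. Within these 120 bases Rdh16f1 and Rdh16 each differed from Rdh9 at 1 base and Rdh16f2 at 3, and all differences lay in the first exon.

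For Rdh9 and Rdh16f1 the likeness goes further, because their main transcripts use the same genomic exons. Of 4 exons in each transcript, exons 2 and 3 have the same start and end (chr10:127788608-127788866 and chr10:127790189-127790352), and exon 4 starts at the same base and ends at 127792697 in Rdh9 and 127792694 in Rdh16f1. Only the first exons differ in place, at chr10:127776405-127776797 for Rdh9 and chr10:127759787-127760250 for Rdh16f1. In all, 2302 exonic bases belong to both transcripts, 85.3% of the 2698 of Rdh9 and 83.2% of the 2766 of Rdh16f1. The first exons hold 313 coding bases, of which 12 differ between these genes, and the other 638 of 951 coding bases are the same stretch of genome. Of all 50-base stretches of the main transcript, 92.3% in Rdh9 and 100% in Rdh16f1 also occur in a transcript of another gene, against 15.1% in Rdh16 and 10% in Rdh16f2. The exon map of the main Rdh9 and Rdh16f1 transcripts shows the shared exons to scale.

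**Figure D1:**
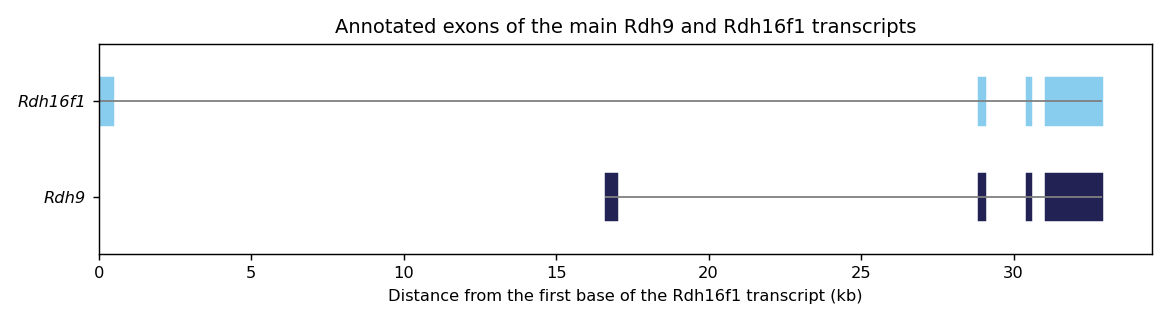
Annotated exons (boxes) and introns (lines) of the main Rdh9 and Rdh16f1 transcripts, against the distance in kb from the first base of the Rdh16f1 transcript. The 3 exons on the right stand at the same place in both genes, and only the first exon of each lies apart.

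The deposited counts of Rdh9 and Rdh16f1 ran opposite to each other in LKO-NC replicates 2 and 3. Rdh9 stood at 20.0, 36.6 and 55.7 CPM in FLOX-NC, at 31.3, 1.73 and 1.06 in LKO-NC, at 24.3, 62.9 and 72.7 in FLOX-HFHS and at 39.9, 93.0 and 94.2 in LKO-HFHS. Rdh16f1 was at 0 counts in 8 of the 12 libraries and stood at 47.8 and 39.8 CPM in LKO-NC replicates 2 and 3, at 3.62 CPM in FLOX-HFHS replicate 3 and at 0.0428 CPM in LKO-HFHS replicate 3. The 2 libraries with almost no Rdh9 were thus the ones with high Rdh16f1, while FLOX-HFHS replicate 3 had some Rdh16f1 and the highest Rdh9 of its group. In LKO-NC replicates 2 and 3 Rdh16f1 took 96.5% and 97.39% of the counts of this pair, and the main Rdh9 transcript had 0 counts in both, against 540 to 6526 in the other 10 libraries. In FLOX-HFHS replicate 3 the share of Rdh16f1 was 4.746%, and in LKO-HFHS replicate 3 it was 0.04543%. The deposited counts are estimates per transcript added up per gene, and how reads were shared out between such transcripts is not given in the sources used here. Whether the split in these libraries is one of expression or of read assignment was not tested.

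The sum of Rdh9 and Rdh16f1 does not depend on how their shared reads were split. It stood at 20.0, 36.6 and 55.7 CPM in FLOX-NC and at 31.3, 49.6 and 40.8 in LKO-NC. HFHS livers had 24.3, 62.9 and 76.3 CPM in FLOX and 39.9, 93.0 and 94.2 in LKO. The LKO-NC libraries lay within the range of FLOX-NC, and the diet groups overlapped in both genotypes. For Rdh9 alone the fitted log2 fold change by the diet in knockout livers was 2.74 ± 1.05 (SE), and for the sum it was 0.90 ± 0.46. For the knockout on the control diet the value moved from -1.73 ± 1.02 for Rdh9 alone to 0.11 ± 0.45 for the sum. The interaction moved from 2.23 ± 1.41 to 0.36 ± 0.64. In floxed livers, where Rdh16f1 took few reads, the diet value was 0.51 ± 0.99 for Rdh9 and 0.54 ± 0.45 for the sum. For the knockout on the HFHS diet these were 0.50 ± 0.99 and 0.47 ± 0.45. Rdh9 alone was not called in any comparison by edgeR (limma on FPKM called it higher by the diet in knockout livers), and 1 library weighed heavily on it: without LKO-NC replicate 1 its diet value in knockout livers was 5.77, a call, and its knockout value on the control diet was -4.75. Without the library labelled LKO-NC replicate 2, Rdh9 alone gave 2.23 ± 1.05 for the diet in knockout livers, -1.216 ± 1.005 for the knockout on the control diet and 1.72 ± 1.32 for the interaction. The sum gave 1.07 ± 0.54 for the diet in knockout livers, -0.05 ± 0.52 for the knockout on the control diet and 0.53 ± 0.70 for the interaction. No fold change is given for Rdh16f1, since its fitted value rests on groups at or near 0 counts and depends on the prior count.

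**Figure D2:**
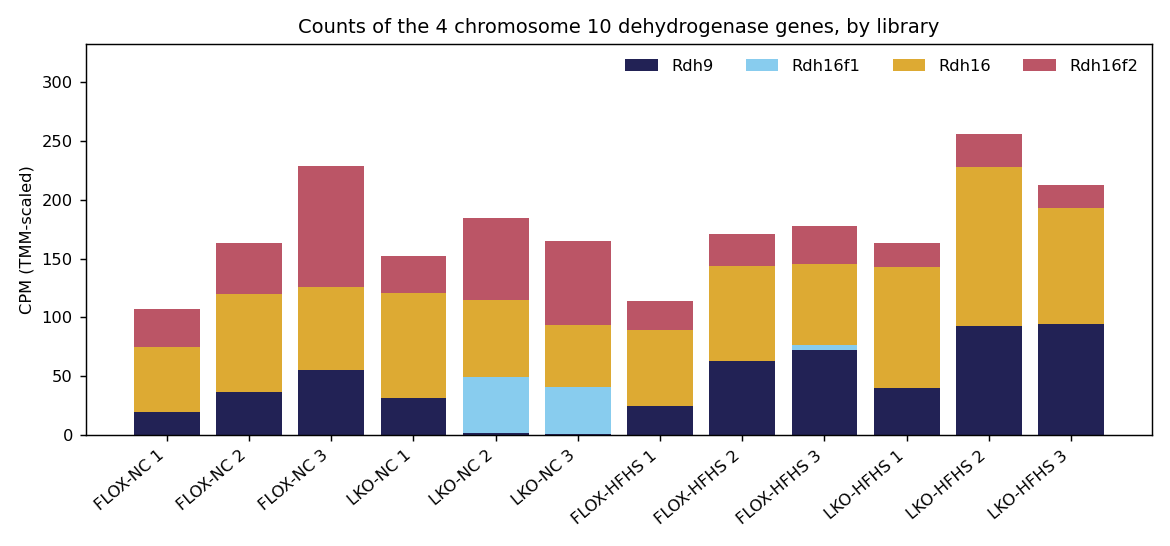
Stacked CPM of Rdh9, Rdh16f1, Rdh16 and Rdh16f2 in each of the 12 libraries. The light blue Rdh16f1 part is visible in LKO-NC replicates 2 and 3, where the Rdh9 part is nearly gone, and as a sliver in FLOX-HFHS replicate 3.

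Rdh16, the most evenly expressed gene of the cluster, was highest in knockout livers on the HFHS diet. It stood at 55.1, 83.5 and 70.5 CPM in FLOX-NC and at 89.7, 65.1 and 53.0 in LKO-NC. Livers of the HFHS diet had 65.1, 80.8 and 69.2 CPM in FLOX and 103, 135 and 99.1 in LKO. All 3 LKO-HFHS libraries lay above all libraries of the other groups. The log2 fold change by the diet was 0.70 ± 0.24 (SE) in knockout livers and 0.04 ± 0.24 in floxed livers, and that by the knockout was 0.65 ± 0.24 on the HFHS diet and -0.01 ± 0.24 on the control diet. None was called, and the interaction was 0.66 ± 0.34. Leaving out the library labelled LKO-NC replicate 2 gave 0.66 ± 0.29 for the diet in knockout livers, 0.04 ± 0.28 for the knockout on the control diet and 0.62 ± 0.38 for the interaction. Without a scaling factor the median of all tested genes shifted by 0.269 (log2) for the diet in knockout livers, by 0.44 for the knockout on the HFHS diet and by 0.346 for the interaction, and Rdh16 shifted with it, to 0.98 and 1.07 in the first pair.

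Rdh16f2 ran the other way with diet. Its levels were 31.6, 42.9 and 103 CPM in FLOX-NC and 31.2, 69.5 and 70.8 in LKO-NC. In HFHS livers they were 24.2, 27.0 and 31.9 CPM in FLOX and 20.1, 27.4 and 19.1 in LKO. The diet groups did not overlap in knockout livers, and in floxed livers they overlapped only through FLOX-NC replicate 1 at 31.6 CPM and FLOX-HFHS replicate 3 at 31.9 CPM. The log2 fold change was -1.36 ± 0.41 (SE) in knockout and -1.09 ± 0.41 in floxed livers, neither called, and the floxed value was -0.42 without FLOX-NC replicate 3. A fit that blocks on the replicate number called it in knockout livers, lower at -1.26. Without the library labelled LKO-NC replicate 2 the value there was -1.20 ± 0.46. By the knockout Rdh16f2 gave -0.05 ± 0.40 on the control diet and -0.32 ± 0.41 on the HFHS diet. The value on the control diet was -0.21 ± 0.47 without the library labelled LKO-NC replicate 2, and changed sign to 0.63 without FLOX-NC replicate 3. As a share of the counts of the 4 neighbours it fell between 26.3% and 44.92% in FLOX-NC and 20.53% and 42.99% in LKO-NC, against 15.82% to 21.31% in FLOX-HFHS and 8.979% to 12.32% in LKO-HFHS. Each HFHS group thus had a smaller part of the cluster's counts in Rdh16f2 than either LKO-NC or FLOX-NC, except that FLOX-HFHS replicate 1 at 21.31% was above LKO-NC replicate 1. The sum over all 4 genes, which no sharing of reads among them can move, had diet values of -0.11 ± 0.28 in floxed and 0.33 ± 0.28 in knockout livers, and knockout values of 0.01 ± 0.28 on the control diet and 0.45 ± 0.28 on the HFHS diet. Without the library labelled LKO-NC replicate 2 the values that use LKO-NC were 0.41 ± 0.34 for the diet and -0.07 ± 0.34 for the knockout.

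Rdh11 (ENSMUSG00000066441, chr12:79174337-79192293, minus strand) encodes a microsomal reductase of retinal that is best known from the visual cycle. None of its 50-base stretches occurred in another gene. The counts gave 9.69, 20.8 and 28.1 CPM in FLOX-NC, 26.4, 20.3 and 27.7 in LKO-NC, 14.1, 17.9 and 18.0 in FLOX-HFHS and 22.9, 32.6 and 20.6 in LKO-HFHS. On the HFHS diet all knockout libraries lay above all floxed ones, with a log2 fold change of 0.61 ± 0.32 (SE), not called. FLOX-NC spanned nearly the whole range of the gene, and its lowest value was in replicate 1, the library with the highest ribosomal RNA share. The other comparisons gave -0.23 ± 0.32 and 0.03 ± 0.32 for the diet in floxed and knockout livers and 0.34 ± 0.32 for the knockout on the control diet. Leaving out the library labelled LKO-NC replicate 2 gave -0.09 ± 0.37 for Rdh11 by the diet in knockout livers and 0.47 ± 0.37 by the knockout on the control diet.

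Rbp4 (ENSMUSG00000024990, chr19:38116629-38125281, minus strand) encodes the protein that carries retinol from the liver through the blood. It stood at 1078, 2085 and 3137 CPM in FLOX-NC and at 2053, 2992 and 2571 in LKO-NC, against 1110, 1674 and 1591 in FLOX-HFHS and 1187, 1846 and 1572 in LKO-HFHS. In knockout livers every HFHS library lay below every control diet library. In floxed livers FLOX-NC replicate 1 lay below all others and the groups overlapped. The log2 fold change by the diet was -0.73 ± 0.35 (SE) in knockout livers, -0.59 ± 0.40 without the library labelled LKO-NC replicate 2, and -0.53 ± 0.35 in floxed livers, none called. The knockout gave 0.27 ± 0.35 on the control diet and 0.07 ± 0.35 on the HFHS diet. For Rbp4 the control diet value was 0.14 ± 0.40 without the library labelled LKO-NC replicate 2 and -0.03 without FLOX-NC replicate 1. Rbp4 is made by hepatocytes, and the summed level of the 8 hepatocyte genes moved the same way, from 65012 to 80682 CPM in LKO-NC to 39589 to 41339 CPM in LKO-HFHS, with 2 of the 8 called lower. In floxed livers that sum was 43695 to 88066 CPM on the control diet and 40643 to 52962 CPM on the HFHS diet, with 0 of 8 called lower. Alb, at 30071 to 73466 CPM over the 12 libraries, supplied most of it. The median log2 fold change of the 8 genes by the diet was -0.43 in floxed and -0.85 in knockout livers. Apob, another of the 8, went the other way in floxed livers, from 2414 to 2747 CPM in FLOX-NC to 3444.5 to 4884 CPM in FLOX-HFHS. In knockout livers Apob overlapped between diets. The part of the hepatocyte genes in the Rbp4 values was not tested.

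Lrat (ENSMUSG00000028003, chr3:82892579-82903973, minus strand) encodes lecithin retinol acyltransferase, which makes retinyl esters for storage and in the liver marks stellate cells. It was 7.23, 11.1 and 12.3 CPM in FLOX-NC and 13.0, 29.9 and 21.8 in FLOX-HFHS. In knockout livers it was 5.86, 4.04 and 12.9 CPM on the control diet and 19.1, 19.8 and 16.0 on the HFHS diet. In both genotypes every HFHS library lay above every control diet library, in floxed livers by a gap of less than 1 CPM. The log2 fold change by the diet was 1.08 ± 0.40 (SE) in floxed and 1.26 ± 0.40 in knockout livers, neither called. In knockout livers it was 0.96 ± 0.40 without the library labelled LKO-NC replicate 2. Leaving out LKO-NC replicate 3 gave 1.87, a call. The knockout gave -0.42 ± 0.40 on the control diet and -0.24 ± 0.39 on the HFHS diet, the latter 0.12 without a scaling factor, against a shift of all genes by 0.44. The control diet value of Lrat was -0.11 ± 0.39 without the library labelled LKO-NC replicate 2. It was -1.02 when replicate 3 of LKO-NC was left out. Of 11 other stellate cell markers 6 had a positive and 5 a negative log2 fold change by the diet in floxed livers, and Dcn, a matrix proteoglycan also made by fibroblasts, supplied much of their summed level. The sum was 152 to 196 CPM in FLOX-NC and 207 to 372 in FLOX-HFHS, with 0 of 11 called. In knockout livers it was 108 to 182 CPM in LKO-NC and 258 to 290 in LKO-HFHS, with 2 of 11 called higher, and none of the 11 markers was at 0 in all libraries of a group. Their part in the Lrat values was not tested.

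**Figure D3:**
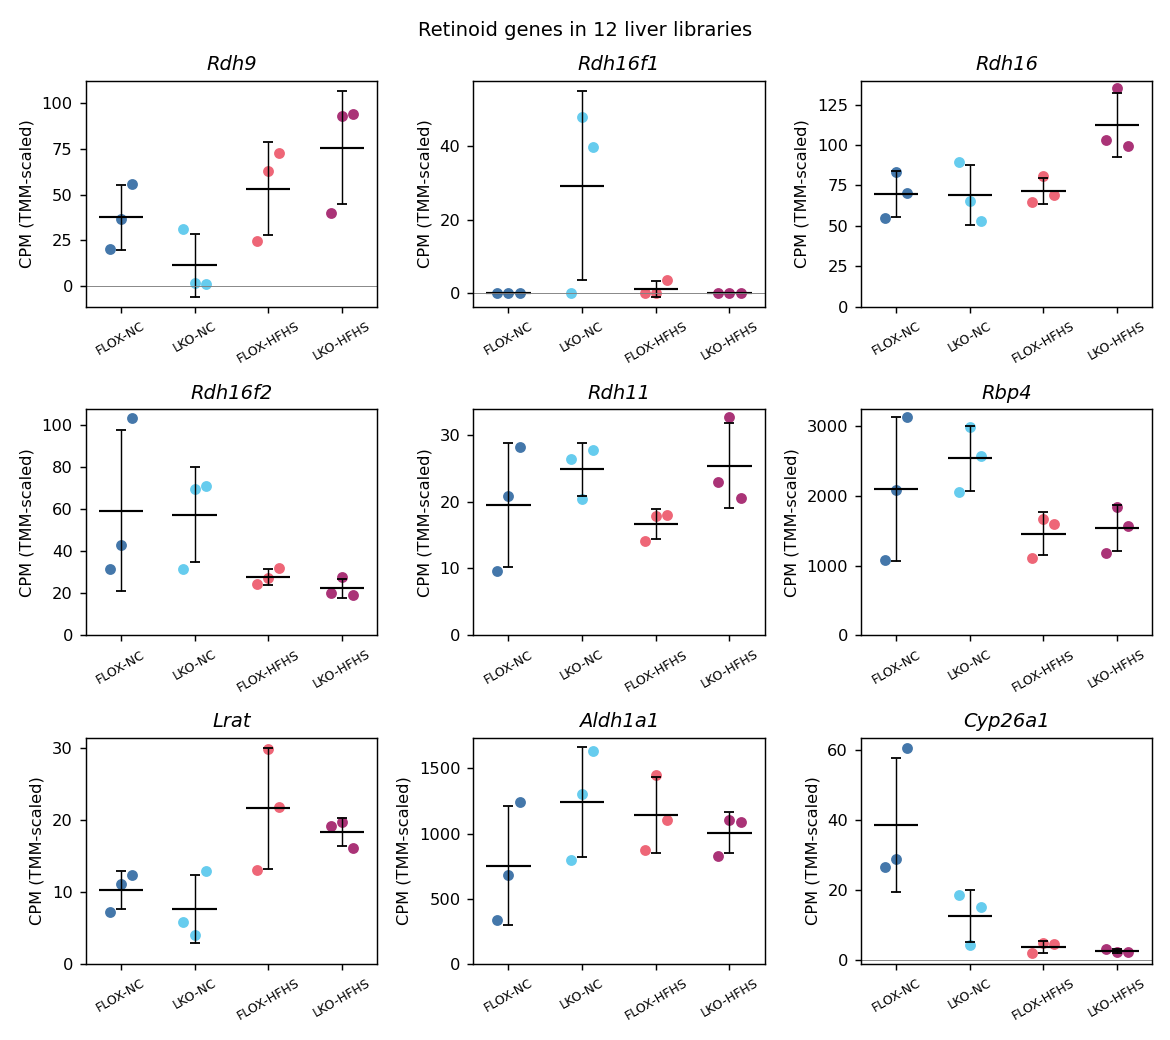
CPM of the 9 genes in the 12 libraries, by group, with each panel on its own linear axis. Points are libraries, the bar is the group mean and the error bar 1 SD over 3 libraries; Cyp26a1 was 1.78 to 4.79 CPM in all 6 HFHS libraries, Rdh16f1 was high in LKO-NC replicates 2 and 3 only, and Lrat lay higher in both HFHS groups.

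Aldh1a1 (ENSMUSG00000053279, chr19:20492715-20643465, plus strand) encodes the cytosolic retinal dehydrogenase of hepatocytes, which turns retinal into retinoic acid and also oxidises other aldehydes. Its levels were 336, 681 and 1244 CPM in FLOX-NC, 795, 1306 and 1631 in LKO-NC, 872, 1453 and 1104 in FLOX-HFHS and 826, 1107 and 1089 in LKO-HFHS. The groups overlapped in all 4 comparisons between them. The diet gave a log2 fold change of 0.60 ± 0.41 (SE) in floxed and -0.30 ± 0.41 in knockout livers, and the knockout 0.72 ± 0.41 on the control diet and -0.18 ± 0.41 on the HFHS diet. Without a scaling factor the last of these was 0.24. Without the library labelled LKO-NC replicate 2, Aldh1a1 gave -0.27 ± 0.48 by the diet in knockout livers and 0.69 ± 0.48 by the knockout on the control diet. The lowest value of all was again in FLOX-NC replicate 1. Of the 50-base stretches of the main Aldh1a1 transcript, 7.53% also occur in Aldh1a7, its near copy.

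Cyp26a1 (ENSMUSG00000024987, chr19:37697798-37701536, plus strand) encodes the hydroxylase that degrades retinoic acid, and was the gene of the set called by the diet in both genotypes. In FLOX-NC it stood at 26.4, 28.7 and 60.5 CPM, and in FLOX-HFHS at 1.78, 4.79 and 4.49 CPM. In knockout livers it stood at 18.6, 4.31 and 14.96 CPM on the control diet and at 3.03, 2.10 and 2.05 CPM on the HFHS diet. The diet groups did not overlap in either genotype, and the lowest control diet value was in the library labelled LKO-NC replicate 2. In floxed livers the mean was 38.6 ± 19.1 CPM (SD, n = 3) on the control diet and 3.69 ± 1.66 on the HFHS diet, a log2 fold change of -3.37 ± 0.54 (SE), called lower. Knockout livers went from 12.6 ± 7.44 to 2.395 ± 0.551 CPM (SD, n = 3), a log2 fold change of -2.40 ± 0.53, also called lower. The floxed call held in each fit that left out 1 library, with values from -3.60 to -2.88, and the knockout call ended in 5 of them, at -2.02 and -2.28 when replicates 1 and 3 of LKO-NC were left out in turn, and at -2.60, -2.34 and -2.29 for LKO-HFHS replicates 1, 2 and 3. Without the library labelled LKO-NC replicate 2 it was called at -2.81 ± 0.44. It also ended with the replicate number as a block, at -2.32.

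Between genotypes on the control diet, Cyp26a1 was lower in all 3 LKO-NC libraries than in all 3 FLOX-NC libraries. The log2 fold change by the knockout was -1.61 ± 0.51 (SE), not called, and -1.20 ± 0.45 without the library labelled LKO-NC replicate 2. On the HFHS diet the genotypes overlapped, at -0.64 ± 0.51. The interaction was 0.97 ± 0.71, or 0.55 ± 0.59 without that library, so these data do not show that the diet effect differed between genotypes. None of the 50-base stretches of Cyp26a1 occurred in another gene, and 99.61% of its counts were on 1 transcript.

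The start of Cyp26a1 carries a motif named for the receptor of retinoic acid, and its sequence is given because the gene is the one called in the set. These are the 250 bases before its start in RefSeq (GRCm38.p6, chr19:37697558-37697807, plus strand, 5′ to 3′), with capitals on the match to a direct repeat.
Cyp26a1: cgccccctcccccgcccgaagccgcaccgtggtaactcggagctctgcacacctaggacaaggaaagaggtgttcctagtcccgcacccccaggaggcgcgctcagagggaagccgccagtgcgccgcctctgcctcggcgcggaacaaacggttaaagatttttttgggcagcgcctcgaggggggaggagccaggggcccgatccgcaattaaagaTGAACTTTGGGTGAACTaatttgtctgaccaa
The motif searched was a pair of half-sites, each reading AGGTCA or alternatively AGTTCA or alternatively GGGTCA or alternatively GGTTCA, in the same direction with 5 bases between them, on both strands. Here it lies on the minus strand, and its first base on the plus strand is 32 bases before the start. It occurred in 29 of 32851 RefSeq promoters of this length, 0.0883%. Of the 9 genes 8 matched a promoter entry, 11 promoters in all, and the Cyp26a1 promoter was the 1 with the motif. A match describes letters and shows no binding in these livers.

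**Figure D4:**
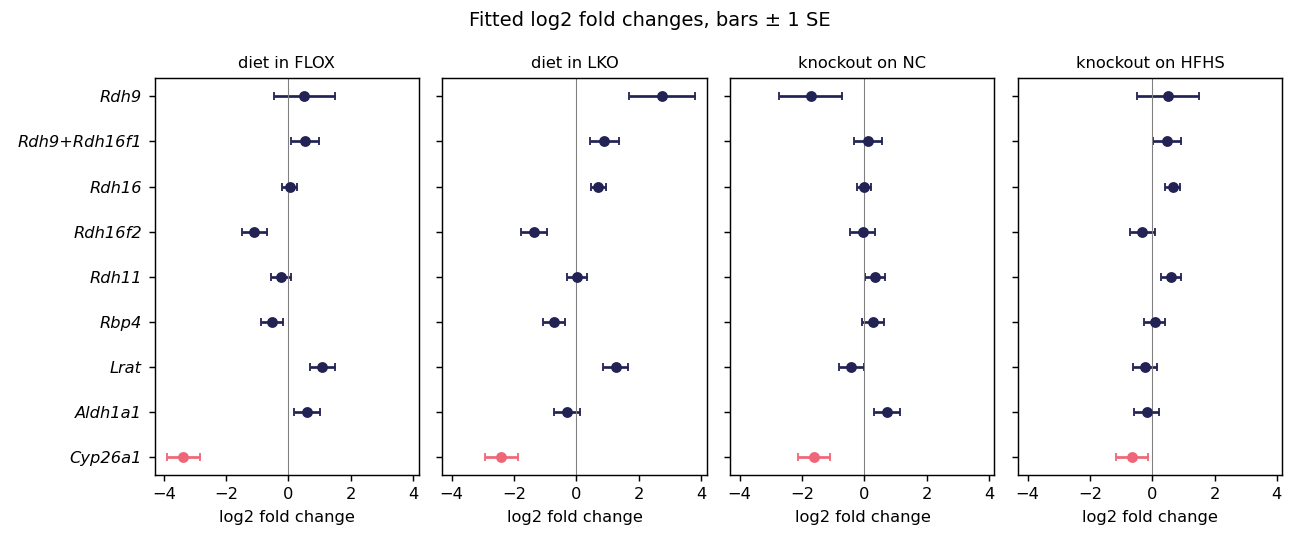
Fitted log2 fold changes of the members, with Rdh9 and Rdh16f1 summed as a further row, in the 4 comparisons between groups (HFHS over NC for the diet, LKO over FLOX for the knockout). Bars are 1 SE, red marks Cyp26a1, the gene called by the diet in both genotypes, and Rdh16f1 alone is left out because its groups are at or near 0.

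Groups that did not overlap were more frequent among the members in some comparisons than in others. By the diet in floxed livers 2 of 9 genes did not overlap (Lrat above, Cyp26a1 below), and in knockout livers 6 of 9 (Rdh9, Rdh16 and Lrat above, Rdh16f2, Rbp4 and Cyp26a1 below). By the knockout it was 1 of 9 on the control diet (Cyp26a1 below) and 2 of 9 on the HFHS diet (Rdh16 and Rdh11 above). Rdh9 is counted here alone, and its sum with Rdh16f1 overlapped between diets in both genotypes. Among all tested genes the shares without overlap by the diet were 19.6% in floxed livers (10.6% above, 8.99% below) and 29.9% in knockout livers (16.9% above, 13% below). By the knockout they were 8.56% on the control diet (3.98% above, 4.58% below) and 11.4% on the HFHS diet (5.9% above, 5.47% below). The choice of members used these counts, so nothing is read from this. The comparisons by diet and by knockout share groups, so their values are not independent of each other.

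Between genes, levels were compared in the authors' FPKM, which are scaled to length. Over the 12 libraries Rbp4 had a median of 1825 FPKM (638 to 2910) and Aldh1a1 of 491 (97.8 to 707), and their ranges overlapped. A wide gap followed, to 20.5 FPKM (10.3 to 71.1) for Rdh16f2 and 20.3 (10.5 to 43.2) for Rdh16. Next came the sum of Rdh9 and Rdh16f1 at 14.6 FPKM (4.62 to 42.2), whose range overlaps both. Rdh11 had 5.60 FPKM (1.84 to 10.6), Cyp26a1 2.18 (0.542 to 29.6) and Lrat 2.08 (0.631 to 4.72). These last 3 overlapped each other as well, and only the step from Aldh1a1 down to the dehydrogenase cluster exceeded the spread over libraries. Rdh9 and Rdh16f1 taken singly had medians of 12.03 FPKM (0.738 to 42.2) and 0 (0 to 14.5). Each gene except Rdh16f1 had counts in all 12 libraries, and 97.12% to 100% of the counts of each gene lay on its main transcript.

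Another 54 genes of retinoid uptake, storage, conversion, clearance and response were listed by role, of which 41 had enough reads to be tested. The 13 that were not tested include the retinol receptor gene Stra6, the retinal dehydrogenase Aldh1a2, Crabp1, Crabp2 and Cyp26c1. By the diet in floxed livers 0 of 41 were called (edgeR quasi-likelihood), against 2.9% of all genes. At an unadjusted p under 0.05 there were 11 of the 41, beside 2833 of all 15982 tested genes. DESeq2 called 2 of the 41 and 1294 of all genes there. By the diet in knockout livers edgeR called 1 of 41, higher, against 3.75%. At an unadjusted p under 0.05 there were 11 of the 41, beside 2896 of all 15982. The knockout called 0 of 41 on either diet and the interaction 0 of 41, with 0, 1 and 0 genes at an unadjusted p under 0.05 and none by DESeq2. The median log2 fold change of the 41 genes was -0.02 by the diet in floxed livers and 0.08 in knockout livers, beside -0.005 and 0.05 over all tested genes. For the knockout it was 0.003 on the control diet and 0.04 on the HFHS diet, beside -0.049 and 0.015, and for the interaction 0.08 beside 0.054.

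The 1 gene called was Pnpla3, which encodes a lipid droplet lipase that also hydrolyses retinyl esters in human stellate cells. It was at 0 counts in all 6 control diet libraries and stood at 0.222, 0.757 and 0.370 CPM in FLOX-HFHS and 0.403, 1.01 and 0.328 CPM in LKO-HFHS. It was thus detected in each HFHS library, at a low level. Against a floor of 3 counts over the group it was at least 26.2-fold higher by the diet in knockout livers, from 107 counts, with an adjusted p of 0.0388. In floxed livers it was at least 22.8-fold higher, from 68 counts, with an adjusted p of 0.0536. The floors cover counting error only. The call in knockout livers ended in 9 of the 12 fits that left out 1 library, over which the adjusted p ran up to 0.136, and was 0.111 without the library labelled LKO-NC replicate 2.

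Among enzymes that interconvert retinol and retinal, 0 of 16 tested genes were called in any comparison by edgeR. At an unadjusted p under 0.05 there were 6 by the diet in floxed livers and 5 in knockout livers. Over all 15982 tested genes these counts were 2833 and 2896. Rdh7, an abundant liver dehydrogenase of the same short-chain family, stood at 858, 1110 and 1213 CPM in FLOX-NC and 799, 764 and 713 in FLOX-HFHS, and at 1056, 1230 and 870 CPM in LKO-NC and 614, 574 and 614 in LKO-HFHS. Each HFHS group lay below its control diet group, with log2 fold changes of -0.48 ± 0.21 (SE, adjusted p 0.251) in floxed and -0.81 ± 0.21 (adjusted p 0.0552) in knockout livers. Adh4, an alcohol dehydrogenase that accepts retinol, likewise did not overlap between diets. It stood at 44.1, 56.8 and 89.0 CPM in FLOX-NC, 33.0, 42.2 and 36.5 in FLOX-HFHS, 54.6, 79.9 and 79.3 in LKO-NC and 32.1, 43.9 and 32.9 in LKO-HFHS. Its log2 fold changes were -0.76 ± 0.27 (adjusted p 0.157) and -0.97 ± 0.27 (adjusted p 0.0672). Hsd17b6, a dehydrogenase of the same family that acts on steroids and retinol, gave -0.92 ± 0.30 (adjusted p 0.125) in floxed and -0.17 ± 0.30 (adjusted p 0.841) in knockout livers. For the knockout on the HFHS diet Hsd17b6 gave 0.68 ± 0.30 (adjusted p 1), and its interaction had an adjusted p of 0.955. With the replicate number as a block in the edgeR fit, 5 of 41 genes were called by the diet in knockout livers. Rdh7 (-0.80, adjusted p 0.0411) and Adh4 (-0.95, adjusted p 0.0156) were lower. Pnpla3, Dhrs7 (1.25, adjusted p 0.014) and Tgm2 (0.75, adjusted p 0.0195) were higher. Whether the block applies is not settled by the check of same-number libraries, and it was used with both fits known.

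**Figure D5:**
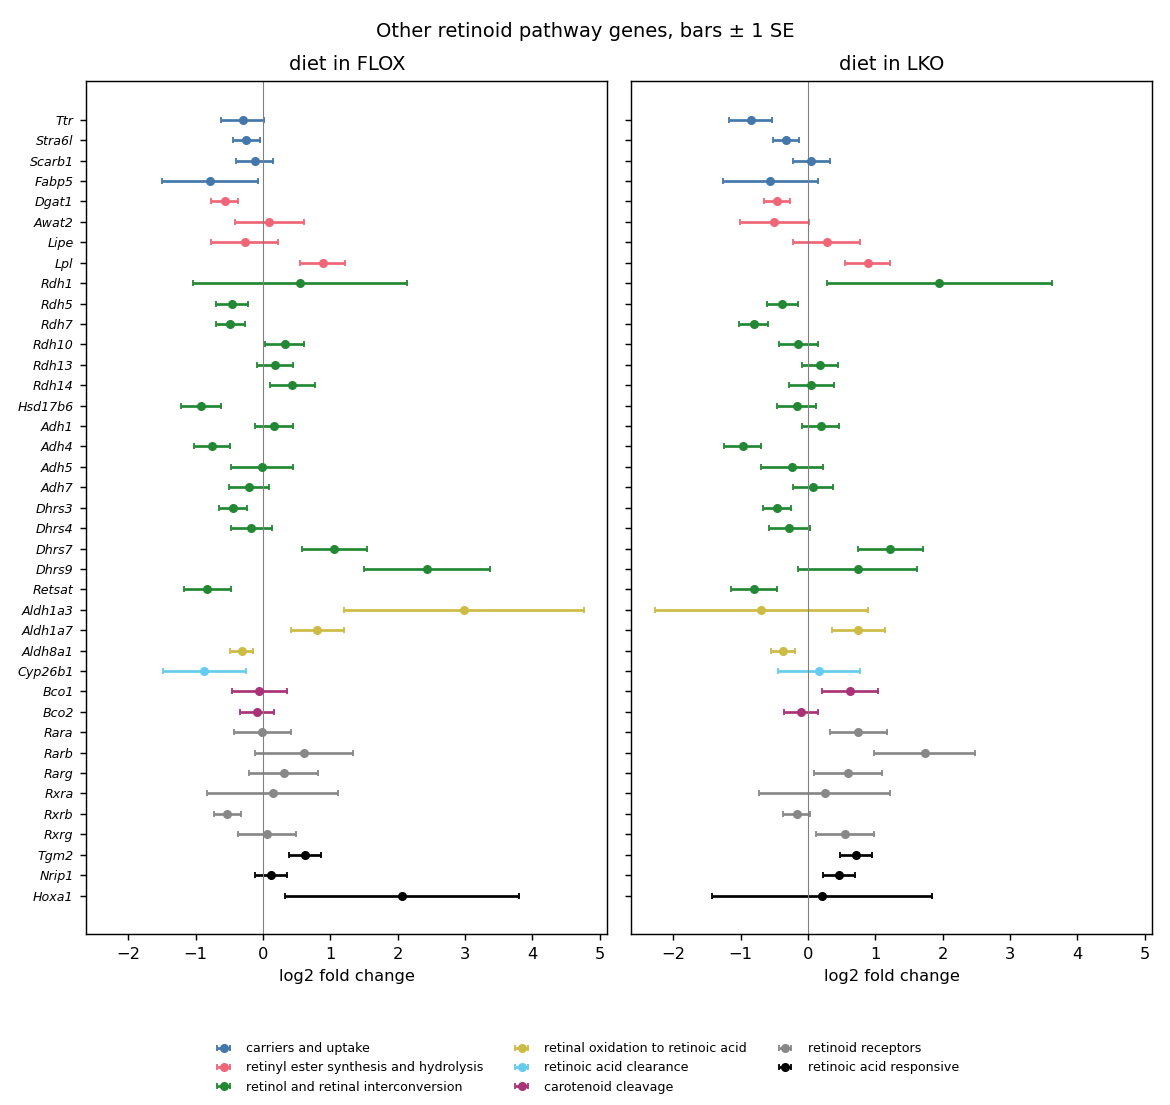
Fitted log2 fold changes by the HFHS diet of 39 other retinoid pathway genes, in floxed livers (left) and knockout livers (right), coloured by role, with bars of 1 SE. None of these 39 was called, and Pnpla3, at 0 in all control diet libraries, is not drawn.

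Apart from Pnpla3, edgeR without the block called 0 genes of the remaining roles in any comparison. Of 5 tested genes of carriers and uptake all had a negative log2 fold change by the diet in floxed livers, and in knockout livers 2 were positive and 3 negative. Between diets 0 of these 5 genes did not overlap in floxed livers, beside 19.6% of all tested genes. In knockout livers 3 of 5 did not overlap (1 above, 2 below), beside 29.9% of all tested genes (16.9% above, 13% below). Ttr, which encodes transthyretin, the partner of retinol-binding protein in blood, gave -0.30 ± 0.31 (SE, adjusted p 0.68) in floxed and -0.85 ± 0.32 (adjusted p 0.166) in knockout livers. Fabp5, a fatty acid binding protein that can carry retinoic acid, gave 1.43 ± 0.72 (adjusted p 1) by the knockout on the HFHS diet. Dgat1, an acyltransferase that can also esterify retinol, gave -0.57 ± 0.20 (adjusted p 0.151) and -0.46 ± 0.20 (adjusted p 0.23) by the diet in floxed and knockout livers. All 6 receptor genes had a negative value by the knockout on the control diet, the smallest p being that of Rara at -0.87 ± 0.43 (adjusted p 0.708). On the HFHS diet 4 of the 6 were positive and 2 negative. Among genes known to respond to retinoic acid, edgeR without the block called 0 of 7 in any comparison, and with it Tgm2, as given above. By the diet in floxed livers 1 of these 7 lay above and 1 below without overlap, beside 10.6% and 8.99% of all tested genes. In knockout livers 4 of these 7 lay above and 1 below without overlap, beside 16.9% and 13% of all tested genes. Rarb, one of them, gave 1.73 ± 0.75 (adjusted p 0.239) by the diet in knockout livers, Dhrs3 -0.46 ± 0.21 (adjusted p 0.273) and Cyp26b1, the other hydroxylase tested, 0.17 ± 0.61 (adjusted p 0.932). Ttr, Rarb, Dhrs3 and Cyp26b1 were named here for their roles after their values had been seen, as were Dhrs7 and Tgm2 above. Rxra, one of the receptor genes, was named because of its values. It stood at 7.63 CPM in FLOX-NC replicate 1 and at 6.07 CPM in LKO-NC replicate 1. The other control diet libraries had 136.7 and 150.9 CPM in FLOX-NC and 153.7 and 121.3 CPM in LKO-NC. Every HFHS library also lay far above the 2 low ones. The Rxra value counted above for the knockout on the control diet includes these 2 libraries. The cause of their low values was not tested.

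The genes whose profile lay nearest to that of Cyp26a1 over the 12 libraries, among 10936 candidates, were Kyat1, G6pc and Ces2a. The root mean square difference of centred log2 CPM was 0.964 for Kyat1, 0.981 for G6pc and 0.99 for Ces2a, against a spread of Cyp26a1 about its own mean of 1.66. Kyat1 encodes a kynurenine aminotransferase, with log2 fold changes of -2.11 and -1.81 by the diet in floxed and knockout livers. For G6pc, the glucose-6-phosphatase, these were -1.85 and -1.46, and for Ces2a, a carboxylesterase, -2.64 and -2.21. All of these were smaller in size than the changes of Cyp26a1 in the same genotype.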

How the data were processed

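Liver RNA was measured in 12 libraries of 4 groups. Tools named in the submitters' processing notes are cutadapt, FastQC, HISAT2, StringTie and edgeR, with build mm10 and without roles or versions. The authors deposited estimated counts per gene and transcript, all whole numbers, where a gene is the sum of its transcripts, and FPKM values. A stranded kit is named in the labels, and how strand entered the counting is not given in the sources used here. Although the plan assumed plain counts, edgeR was also used on the estimated ones, with no rounding needed. Columns were assigned to samples by group name and number.

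Genes were kept with filterByExpr (15982 of 55401), scaled by TMM and fitted in 1 model of 4 group terms (edgeR 4.0.16 on R 4.3.3, robust quasi-likelihood, 8 residual degrees of freedom), with Benjamini-Hochberg adjustment over all tested genes. SE is the log2 fold change divided by the root of its F statistic. Libraries of a group differed beyond sampling noise in every pair, with a chi-square statistic of 81.77 per gene or more.

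The members and lists were chosen with earlier results of these data known. Text names all members, pathway genes called or of the 2 smallest p per comparison, and the 3 nearest profiles (mean of at least 1 CPM) of each called member, except 1 pathway gene that is not reported here by name and is counted in the lists. Same-number libraries deviated together, above 0.1 in every pair, for the diet in knockout livers alone (0.294, 0.118 and 0.101, while one pair of unlike numbers reached 0.111). Block values are given there where they change a call, a choice made with both fits known. The block takes 1 effect per number over all 4 groups, so a check within the knockout groups cannot settle whether it applies. Alternatives were RLE scaling, no scaling, no filter, a filter of 1 CPM in 3 libraries, DESeq2 1.42.0, fits of 6 libraries, the block, each library or all 4 numbered 1 left out, removal of ribosomal and mitochondrial genes, and limma 3.58.1 on log2 FPKM plus 0.1 or 1. Summing Rdh9 and Rdh16f1 was added after seeing the data. The model was tested on simulated counts. Sequences came from GENCODE M21 and RefSeq, read with Biopython 1.88.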

Additional observations from a re-analysis of the deposited data

How the results depend on the processing

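Each alternative changed 1 choice, except that DESeq2 changes both scaling and test, and limma on FPKM changes the input, the scaling and the test. Over all tested genes DESeq2 called 1294 by the diet in floxed livers and 1562 in knockout livers, against 464 and 599 by edgeR. For the members, the number called by the diet in floxed livers was 2 in DESeq2 (Rdh16f1 higher, Cyp26a1 lower). By the diet in knockout livers it was 0 without a scaling factor, 0 without a filter, 4 in DESeq2 (Rdh16 and Lrat higher, Rdh16f2 and Cyp26a1 lower), 2 with the 6 libraries alone (Rdh16f2 and Cyp26a1) and 2 without the 4 libraries numbered 1 (Rdh9 and Rdh16), and 0 to 2 over the fits that each left out 1 library. By the knockout on the control diet it was 1 in DESeq2 (Rdh16f1) and 1 without the 4 libraries numbered 1 (Rdh9), and for the interaction 1 in each of the same settings. For the 41 other pathway genes the diet in floxed livers called 2 in DESeq2, 5 with the replicate number as a block, 2 without the libraries numbered 1 and 1 on FPKM plus 0.1. In knockout livers it called 2 under the filter of 1 CPM in 3 libraries (Rdh7 and Adh4), 3 in DESeq2, 4 with the 6 libraries alone, 5 with the replicate block, and 0 to 3 over the fits that left out 1 library, with 0 in 9 of them. The sum of the 4 cluster genes by the knockout on the HFHS diet was 0.86 without a scaling factor. The causes were not tested.

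The diet effect on Cyp26a1 in floxed livers was called under every alternative run, with the smallest size on FPKM plus 1 (-2.73). In knockout livers it was negative throughout and no longer called without a scaling factor (-2.15), without a filter (-2.39), without the libraries numbered 1 (-2.22), with the block (-2.32), on FPKM plus 0.1 (-1.86) or on FPKM plus 1 (-1.42). In floxed livers the same-number correlations were 0.255, -0.0334 and 0.0654, while one pair of unlike numbers reached 0.305. With the block Cyp26a1 stayed called in floxed livers at -3.27. No called value changed sign. The scaling factor was lowest in FLOX-HFHS replicate 1 (0.644) and FLOX-NC replicate 1 (0.752), where ribosomal RNA took 25.9% and 32.7% of counts, and was 1 in LKO-HFHS replicate 1, where it took 26.8%. Depth limits Pnpla3, Rdh16f1 and Rarb most, and 3 libraries per group limit every value.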

Other observations

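A minor transcript of Rdh16 that is annotated for nonsense-mediated decay (ENSMUST00000155739) had 309 counts in FLOX-NC replicate 2 and 0 to 55 counts in every other library, of 492 in all. It is reported because of these values and was chosen after they were seen.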
